A study of Mus musculus with 25 samples.

Results

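The nuclear-encoded respiratory chain genes are the genes in the cell nucleus whose proteins build the 5 enzyme complexes of oxidative phosphorylation in mitochondria. These members were taken by symbol: subunits of complex I (symbols opening with Nduf and a, b, c, s or v and a number), the Sdh genes a to d of complex II, the Uqcr genes of complex III, the Cox4 to Cox8 genes of complex IV and the Atp5 genes of complex V. Of 91 matching rows, 2 pseudogenes and 2 genes without a read in any library (Cox7b2 and Cox8b) were left out, which left 87 members among 30749 genes in the table. By complex these were 42, 4, 8, 16 and 17 genes, and 84 members were abundant enough to be tested (at least 10 normalised reads in at least 3 libraries). The members that were not tested were Ndufa4l2, Cox7a1 and Cox8c.

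RNA was sequenced from 2 kinds of macrophage sorted from mouse glioblastomas: microglia, the brain's own macrophages, and monocyte-derived macrophages (MDM), which enter tumours from the blood. Tumours were of type 1 or type 2, the labels' names for the study's 2 lineage-based models, and either arose in the animal (spontaneous) or were transplanted. Microglia had 3 libraries in each of the 4 tumour classes. MDM had 2 libraries from type 1 spontaneous, 4 from type 1 transplanted, 1 from type 2 spontaneous and 2 from type 2 transplanted tumours, so 12 microglia and 9 MDM libraries were compared. The labels name no strain, genotype, age, driver mutation or sorting gate, and they do not say that a group's libraries are from different animals. The p-values therefore reflect only how far these libraries vary, part of which may be technical. The 4 samples labelled as normal brain microglia were not analysed here, so no level below is set against a tumour-free brain.

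The respiratory chain passes electrons from NADH (through complex I) and succinate (through complex II) by way of coenzyme Q, complex III and cytochrome c to oxygen at complex IV, and complexes I, III and IV pump protons across the inner mitochondrial membrane. Complex V, the ATP synthase, makes ATP as those protons return. Some core subunits of complexes I, III, IV and V are encoded in mitochondrial DNA, and nuclear genes encode all of complex II and the remaining core and accessory subunits. Macrophages are known to shift between oxidative phosphorylation and glycolysis as their activation changes. The protein-coding mitochondrial genes were not analysed here.

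Promoters of members are shown first, and any part of them in the shared movement of members described further on was not tested. RefSeq promoter windows on GRCm38.p6 (250 bases before to 50 after the start site) were given for 68 members. Of these, 10 (14.7%) held the NRF1 core GCGCATGC on either strand against 2.80% of 27025 promoters of the same length, and 9 (13.2%) held the YY1 motif AAGATGGC against 2.88%. The ETS motif CCGGAAGT, bound by GABPA, was in 5 (7.35%) against 4.00%, and the ESRRA motif TCAAGGTCA in 2 (2.94%) against 0.41%. Among the 13114 promoters of genes abundant enough to be tested, the shares were 4.67%, 4.23%, 7.11% and 0.26% in the same order. NRF1, GABPA, YY1 and ESRRA are transcription factors known to act on mitochondrial genes. These are exact letter matches, not measured binding, and no test was made of the shares. The 5 windows below hold at least 1 match each, all capital letters mark a match, and GCATGCGC, ACTTCCGG and GCCATCTT are the reverse complements of the NRF1, ETS and YY1 letters.
Cox6a1 (complex IV, minus strand, chr5:115348909-115349208, with the NRF1 core on both strands in 1 overlapping run): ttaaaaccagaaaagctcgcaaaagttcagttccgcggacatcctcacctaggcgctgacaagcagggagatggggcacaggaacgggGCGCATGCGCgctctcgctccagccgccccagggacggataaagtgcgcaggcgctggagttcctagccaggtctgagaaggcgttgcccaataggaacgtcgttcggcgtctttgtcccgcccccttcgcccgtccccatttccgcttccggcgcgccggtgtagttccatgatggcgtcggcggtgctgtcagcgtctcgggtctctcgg
Sdhb (complex II, plus strand, chr4:140961021-140961320, with the NRF1 core): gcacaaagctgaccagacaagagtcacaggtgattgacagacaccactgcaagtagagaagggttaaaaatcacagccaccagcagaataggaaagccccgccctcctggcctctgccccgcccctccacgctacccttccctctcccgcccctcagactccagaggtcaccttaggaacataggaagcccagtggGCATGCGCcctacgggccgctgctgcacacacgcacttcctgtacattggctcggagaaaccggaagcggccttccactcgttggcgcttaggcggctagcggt
Uqcr11 (complex III, minus strand, chr10:80406772-80407071, with the ETS motif and the NRF1 core): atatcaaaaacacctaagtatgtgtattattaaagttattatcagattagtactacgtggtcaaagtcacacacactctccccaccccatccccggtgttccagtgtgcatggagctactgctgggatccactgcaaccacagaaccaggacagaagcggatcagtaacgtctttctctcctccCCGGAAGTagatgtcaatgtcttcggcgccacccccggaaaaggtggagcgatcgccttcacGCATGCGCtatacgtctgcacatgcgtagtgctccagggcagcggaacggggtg
Uqcrh (complex III, minus strand, chr4:116075021-116075320, with the ETS motif): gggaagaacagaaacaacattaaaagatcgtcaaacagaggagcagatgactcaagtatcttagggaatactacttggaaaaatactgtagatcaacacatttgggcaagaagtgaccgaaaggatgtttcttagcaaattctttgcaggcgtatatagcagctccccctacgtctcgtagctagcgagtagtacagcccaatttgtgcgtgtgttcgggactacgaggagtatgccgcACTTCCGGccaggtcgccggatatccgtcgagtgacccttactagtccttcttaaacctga
Ndufs4 (complex I, minus strand, chr13:114388045-114388344, with the YY1 motif after the start site): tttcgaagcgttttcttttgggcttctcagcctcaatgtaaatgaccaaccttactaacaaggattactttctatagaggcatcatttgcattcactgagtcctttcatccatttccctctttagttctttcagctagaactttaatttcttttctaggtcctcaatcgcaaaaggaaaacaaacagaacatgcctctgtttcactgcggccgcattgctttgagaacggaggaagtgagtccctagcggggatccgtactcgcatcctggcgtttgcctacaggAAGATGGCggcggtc

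The libraries held 26530069 to 50365607 reads in genes and 16297 to 21435 detected genes, and the members took 0.428% to 1.24% of the reads. Levels are given as normalised reads, the recovered reads of a library divided by its size factor. All 10 microglia markers (among them Tmem119, P2ry12 and Sall1) were lower and all 10 MDM markers (among them Ccr2 and Ly6c2) higher in MDM than in microglia. The MDM libraries also carried transcripts of other immune cells: the summed level of 15 T and NK cell markers ran from 15610 to 340436 in MDM and from 1157 to 14155 in microglia, and was at or above 282942 in all 4 MDM libraries from type 1 transplanted tumours and in library 1 from type 2 transplanted tumours. All 15 of these markers were higher in MDM, and their part in the results below was not tested.

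Per kilobase of transcript, which allows levels of different genes to be compared, complex V and complex IV held the most abundant members. The median level over libraries was 19824 normalised reads per kb for Atp5b, the catalytic beta subunit of the ATP synthase, and 10435 for Atp5a1, its alpha subunit. Cox4i1, the common form of complex IV subunit 4, stood at 15450 and Cox6a1, the common ("liver") form of subunit 6A, at 9643. Sdhb, the iron-sulphur subunit of complex II, stood at 8633, Uqcrc1, a core protein of complex III, at 8015, and Ndufb8, an accessory subunit, was the highest of complex I at 5697. Of the 87 members, 78 had a median of over 100 normalised reads. Ndufb4b, Ndufb4c, Ndufa11b and Ndufs6b are near-identical copies of Ndufb4, Ndufa11 and Ndufs6, and the levels of these genes are uncertain where reads fit either copy. The kit does not mark strand, and 28 members share exon sequence with a gene on the opposite strand and 4 (Ndufb2, Ndufb8, Ndufb9 and Atp5g2) with a gene on the same strand. Ndufa4 is counted under complex I by its symbol, although its protein is now placed in complex IV.

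Complex IV has tissue-specific forms of several subunits, and here the common form led in each pair. Cox4i2, the lung form of subunit 4, had a median of 12.3 normalised reads per kb beside the 15450 of Cox4i1. Cox6b2, known from testis, had 56.4 beside 6379 for Cox6b1. Cox6a2, the heart and skeletal muscle form of subunit 6A, had 504 beside 9643 for Cox6a1, and was the most abundant of the minor forms. Cox7a1, the muscle form of subunit 7A, had a read in 5 of 21 libraries, Cox8c in 1 and Ndufa4l2, the hypoxia-induced relative of Ndufa4, in 5, and no level of these genes exceeded 13.1 normalised reads. A library without a read allows up to 3 reads, which is 1.94 to 4.84 normalised reads depending on the library.

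Most members varied together from library to library, including libraries of the same group. The first principal component of the 84 tested members held 65.55% of their variance, and 67 of them had a correlation above 0.8 across the 21 libraries with the median of all members (a description over libraries that share depth and composition effects). Relative to each gene's mean over libraries, the median member stood at 1.11 (log2) in type 1 spontaneous microglia library 3, where 82 of 84 members were above their own mean. It stood at -1.18 in type 2 transplanted microglia library 2, where 0 of 84 were. The 2 other type 1 spontaneous microglia libraries stood at 0.16 and -0.34, and the 2 other type 2 transplanted microglia libraries at -0.49 and -0.16. In type 2 spontaneous microglia the values were 0.49, 0.48 and -0.58. Libraries of 1 group thus stood on both sides of 0 in 3 of the 4 microglia groups. Within groups, the median SD of a member was 0.50 (log2) against 0.70 for all genes tested.

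**Figure D1:**
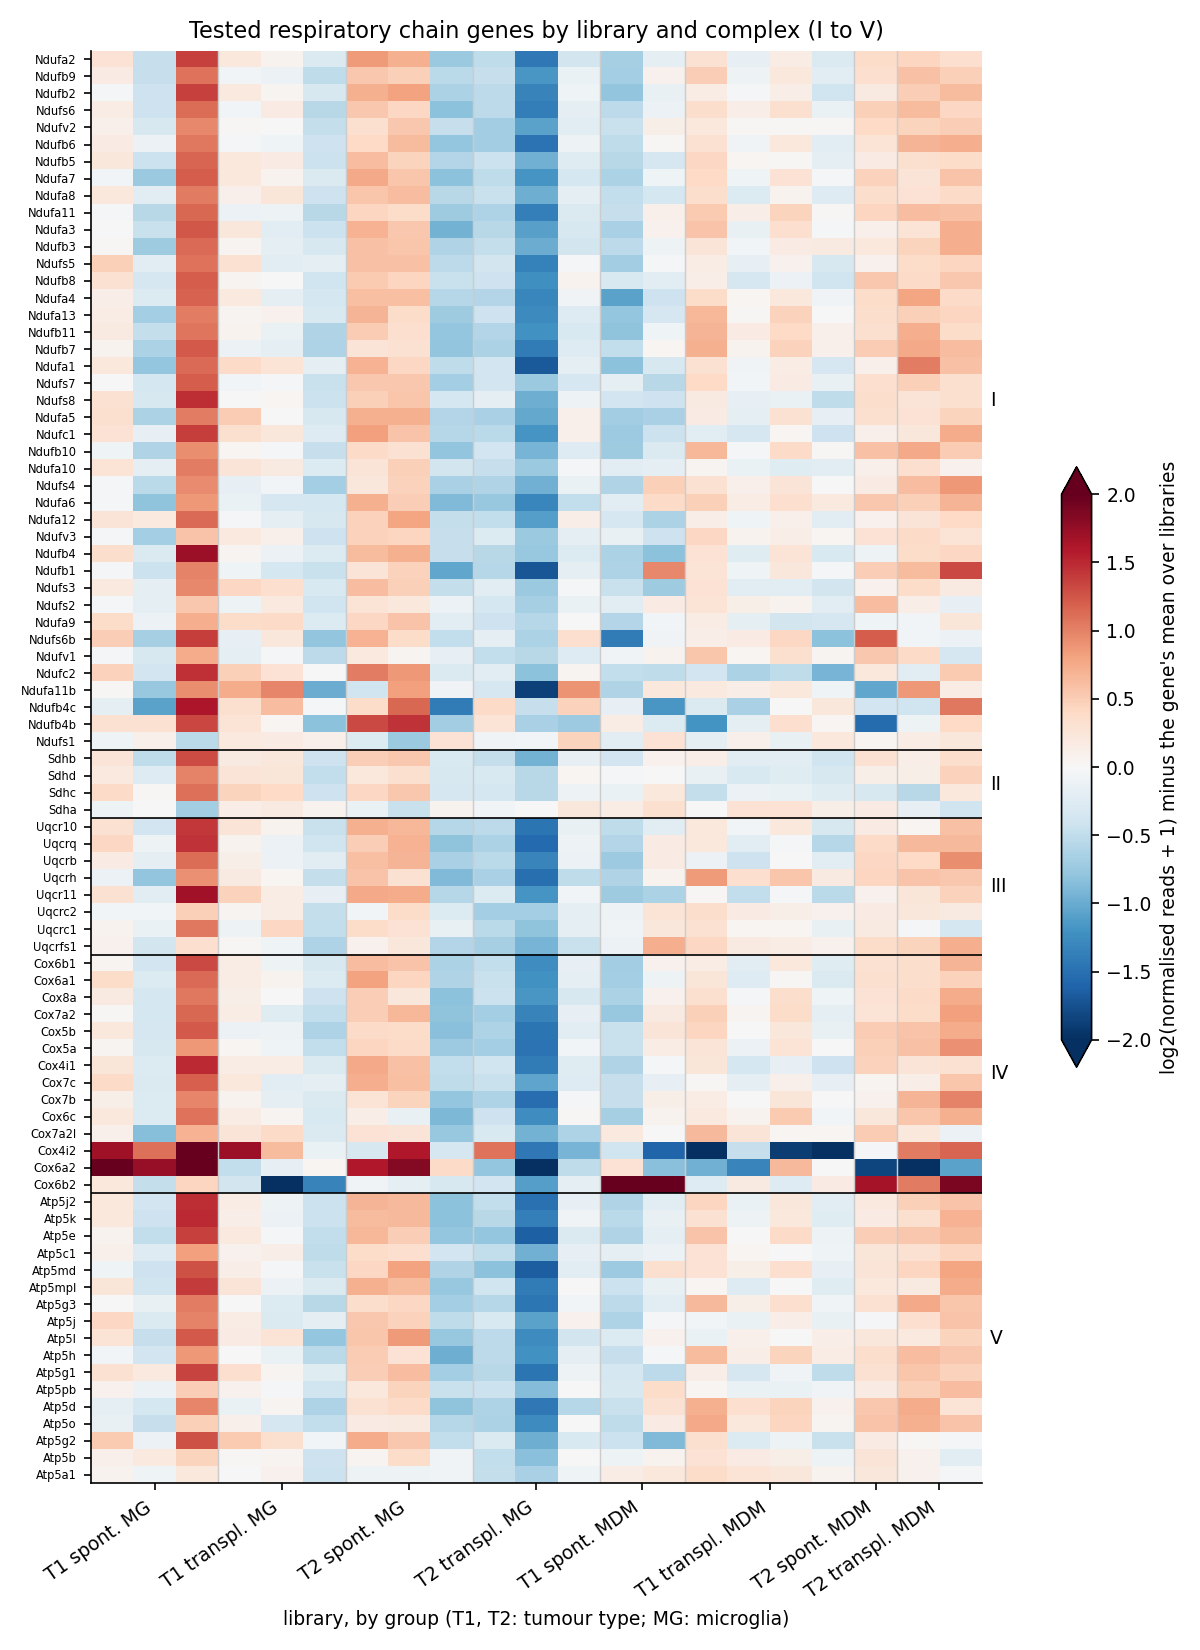
Heat map of the 84 tested respiratory chain genes (rows, by complex I to V and, within a complex, by their correlation with the members' median) in 21 libraries (columns, by group). Colour gives log2(normalised reads + 1) minus the gene's mean over libraries. Type 1 spontaneous microglia library 3 is red and type 2 transplanted microglia library 2 is blue over nearly all rows, and Cox6a2, Cox6b2, Cox4i2, Sdha and Ndufs1 depart from the common pattern.

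Other gene lists moved with the members. The median cytosolic ribosomal protein gene stood at 1.01 in type 1 spontaneous microglia library 3 and at -1.52 in type 2 transplanted microglia library 2, and the median mitochondrial ribosomal protein gene at 0.81 and -0.78. The median gene of the citric acid cycle and pyruvate dehydrogenase moved little, at -0.10 and -0.31, and the median of all genes tested was -0.09 and 0.03. The members' transcripts are mostly short (51 of the 79 tested members with a known length are under 1000 bases). In type 2 transplanted microglia library 2 the shorter members stood at -1.26 and the members of 1000 bases or longer at -0.85, and in type 1 spontaneous microglia library 3 at 1.19 and 0.95. The part of RNA quality, input or transcript length in these shifts was not tested, and in bulk samples fewer cells of a type and less RNA per cell cannot be told apart.

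**Figure D2:**
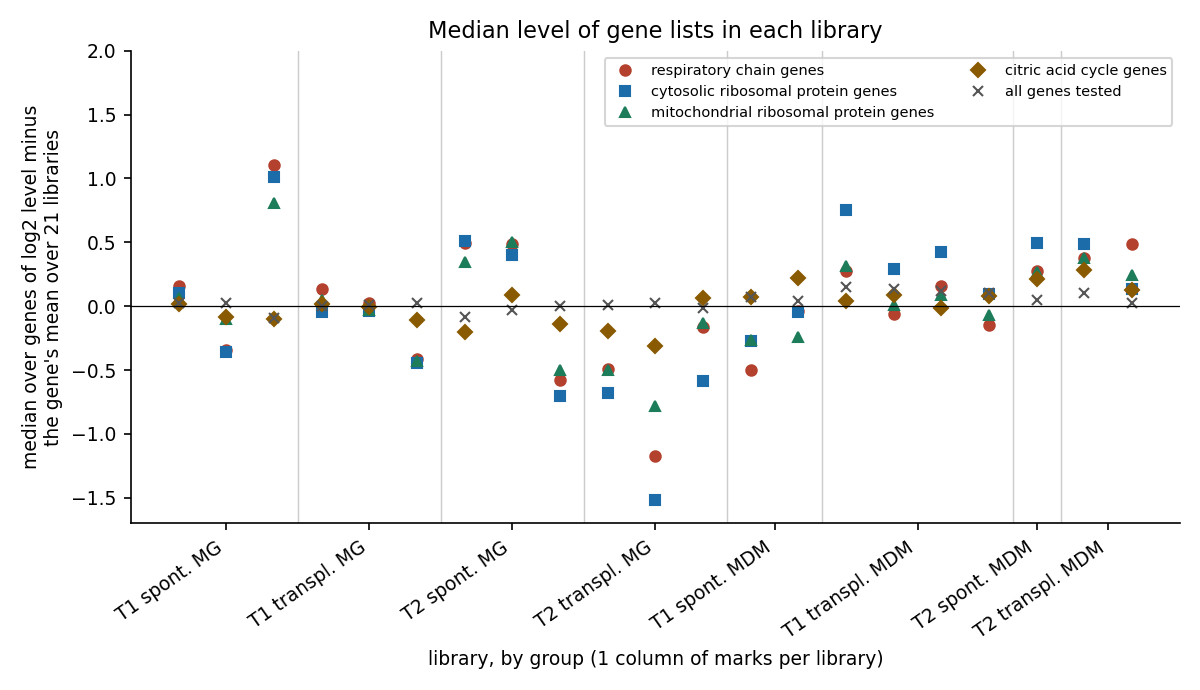
Median level of 5 gene lists in each of the 21 libraries, as log2 level minus the gene's mean over libraries; each column of marks is 1 library. Respiratory chain genes (circles) follow the cytosolic ribosomal protein genes (squares), from 1.11 and 1.01 in the highest library to -1.18 and -1.52 in the lowest, and citric acid cycle genes (diamonds) stay within -0.31 to 0.29.

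Sdha and Ndufs1 ran against the other members. Sdha encodes the flavoprotein that oxidises succinate and so also serves the citric acid cycle, and Ndufs1 encodes an iron-sulphur core subunit of complex I. Their correlations with the members' median were -0.55 and -0.40. Sdha was at 5795 normalised reads in type 1 spontaneous microglia library 3, the lowest of all libraries, where its partner Sdhb was at 22987, the highest. In type 2 transplanted microglia library 2 Sdha was at 9371 and Sdhb at 4809. Sdhc and Sdhd, which anchor the complex in the membrane, sided with Sdhb (correlations 0.65 and 0.84). Cox6b2 (0.19), Cox6a2 (0.34) and Cox4i2 (0.40) also followed the median weakly.

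Between transplanted and spontaneous tumours a single member was called in microglia, Cox6a2, which was lower in transplanted tumours. This comparison sets microglia from transplanted tumours against those from spontaneous tumours, with both tumour types weighted equally. Cox6a2 stood at 3058, 1298 and 3403 normalised reads in type 1 spontaneous microglia and at 1176, 1375 and 505 in type 2 spontaneous microglia. In transplanted tumours it stood at 275, 343 and 395 (type 1) and at 225, 96.0 and 271 (type 2). Each of the 6 spontaneous libraries was above each of the 6 transplanted ones. The means were 1803 ± 1153 (SD, n = 6) and 267.5 ± 103.2 (SD, n = 6), and the fitted level was 6.06-fold lower in transplanted tumours (log2 fold change -2.60 ± 0.42, SE, adjusted p = 0.0027, limma over all 17216 genes tested with Benjamini-Hochberg adjustment). Of all genes, 1.84% were called in this comparison, and of the 84 members 1 was.

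The call on Cox6a2 held in all 32 alternative fits, with adjusted p from 0.0016 to 0.040 and log2 fold changes from -2.82 to -2.37. Relative to its partner form, Cox6a2 made up 26.9%, 19.6% and 19.4% of the summed Cox6a1 and Cox6a2 level per kb in type 1 spontaneous microglia and 9.37%, 13.6% and 10.6% in type 2 spontaneous microglia. In transplanted tumours its share was 3.68%, 4.82% and 6.87% (type 1) and 4.52%, 3.30% and 4.57% (type 2). The shares did not overlap between models within either tumour type. A test of whether the difference between models itself differed between the tumour types gave 0.46 ± 0.84 (log2, adjusted p = 0.97 by limma), so such a difference was not shown.

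Cox6a2 (chr7:128205435-128206366, minus strand, GRCm38) overlaps an annotated exon of Itgad, an integrin gene on the opposite strand that spans chr7:128154376-128223816. Itgad itself stood at 194, 351 and 77.4 normalised reads in type 1 spontaneous microglia and at 1.30, 17.3 and 29.1 in type 2 spontaneous microglia, well under Cox6a2. In transplanted microglia it was between 0 and 25.0, and its difference between models was not called (log2 fold change -2.88 ± 0.88, adjusted p = 0.097 by limma). Itgad was chosen for this after its values were seen, and the reads cannot be assigned to a strand here. Transcripts of skeletal and heart muscle, where Cox6a2 is the usual form (Ckm, Acta1, Myl1, Tnnt3, Actn2 and Myh7), summed to 1.7 to 74.2 in spontaneous and 0.8 to 17.4 in transplanted microglia. Plasmacytoid dendritic cells are known to express Cox6a2, and 4 of their markers (Ccr9, Klk1, Ly6d and Pacsin1) summed to 156 to 950 in spontaneous and 140 to 339 in transplanted microglia. In type 1 transplanted tumours the same markers summed to 9434 to 13696 in MDM and to 180 to 339 in microglia, while Cox6a2 stood at 155 to 604 in MDM and at 275 to 395 in microglia. Those MDM libraries also had B cell marker sums of 19191 to 48110, against 1003 to 2216 in microglia, and high T and NK cell sums. Which cells gave each sum was not tested. The part of these markers in the difference between models was not tested. The muscle and plasmacytoid dendritic cell marker lists were added after the values were seen. Of 15 T and NK cell markers 8 were called higher in transplanted microglia, with summed levels of 1157 to 11001 against 1539 to 14155 in spontaneous microglia, and their part in the result was not tested.

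**Figure D3:**
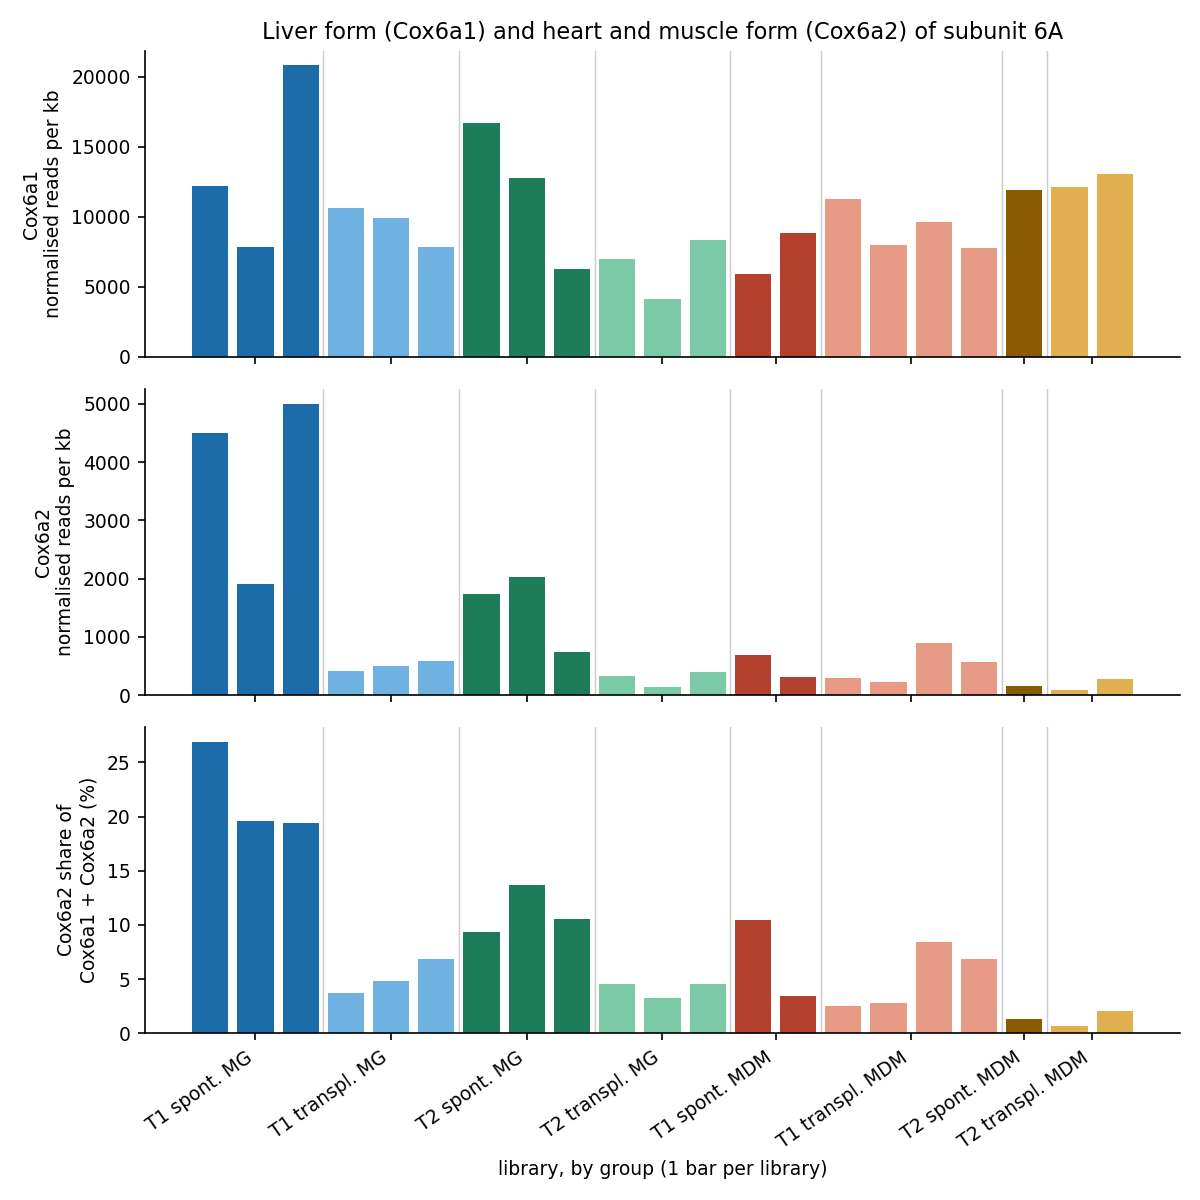
Levels of Cox6a1 and Cox6a2 in normalised reads per kb and the share of Cox6a2 in their sum, 1 bar per library, by group. The Cox6a2 share is between 9.37% and 26.9% in the 6 spontaneous microglia libraries and between 3.30% and 6.87% in the 6 transplanted ones, while Cox6a1 overlaps between the models.

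The other 83 tested members were not called between the models in microglia. Their estimates leaned one way: 81 of 84 members had an estimate below 0 and the median was -0.58 (log2) against 0.04 for all genes, with -0.72 for the cytosolic ribosomal protein genes. Across the 79 tested members with a known length, which share these libraries, the estimate had a correlation of 0.40 with log2 transcript length, so shorter members had the lower estimates, and the part of transcript length was not tested. Among the isoform partners, Cox6a1 was at -0.63 ± 0.26 (adjusted p = 0.20, limma), Cox4i1 at -0.72 ± 0.29 (adjusted p = 0.19) and Cox6b2 at -1.36 ± 0.62 (adjusted p = 0.24). Cox6b1, Cox7a2, Cox7b, Cox8a and Ndufa4 had estimates from -0.66 to -0.50 and Cox4i2 -0.85 ± 0.62 (adjusted p = 0.47). In complex II, Sdhb (-0.56 ± 0.26), Sdhc (-0.45 ± 0.22) and Sdhd (-0.33 ± 0.21) had adjusted p of 0.24, 0.28 and 0.39. The estimates above 0 were those of Sdha (0.31 ± 0.15, adjusted p = 0.27), Ndufs1 (0.34 ± 0.19, adjusted p = 0.32) and Ndufb4c (0.14). Without type 2 spontaneous microglia library 3, whose members stood low, 16 members were called, all lower in transplanted tumours. The share of all genes called in that fit is not given here.

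Tumour type made no call among the members in microglia. With 0 of 84 called by limma, by which 3 members had an unadjusted p under 0.05, and 0 by voom, the share stood beside 0.47% of all genes. The members' median was -0.34 (log2, type 2 over type 1), and 82 of 84 estimates were below 0. Cox4i2 (-1.27 ± 0.62, adjusted p = 0.57) and Cox6a2 (-1.12 ± 0.42, adjusted p = 0.40) had the lowest estimates. Cox6b2 (0.75 ± 0.62, adjusted p = 0.75) and Sdha (0.02 ± 0.15, adjusted p = 0.99) had those above 0, the other Sdh genes stood at -0.39 to -0.26, and Cox4i1, Cox6a1, Cox6b1, Cox7a2, Cox7b, Cox8a and Ndufa4 at -0.44 to -0.34. The interaction of tumour type and model in microglia called 0 members by limma (0 at an unadjusted p under 0.05) and 0 by voom, beside 0.0116% of all genes, with a members' median of -0.32. Cox6b2 had the highest of these interaction estimates (1.99 ± 1.24, adjusted p = 0.88), and the Sdh genes stood at -0.41 to -0.04.

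Across all tumour classes MDM differed from microglia at 6 of 84 tested members, while 42.7% of all genes were called. Cox6a2 was lower in MDM, and Cox6b2, Uqcrfs1, Ndufa6, Atp5o and Atp5d were higher. The share of members called was 7.14%, and the members' median was 0.18 (log2) beside 0.07 for all genes. Complex II had no called gene: Sdha (0.14 ± 0.12), Sdhb (0.04 ± 0.21), Sdhc (-0.30 ± 0.18) and Sdhd (0.01 ± 0.17) had adjusted p from 0.20 to 0.97 by limma. Of the subunit forms, Cox4i2 (-1.01 ± 0.51, adjusted p = 0.12) was not called, and Cox4i1, Cox6a1, Cox6b1, Cox7a2, Cox7b, Cox8a and Ndufa4 stood between 0.04 and 0.36. Without type 1 spontaneous MDM library 2 the count was 3, without type 1 spontaneous microglia library 3 it was 16, and without type 2 transplanted microglia library 3 it was 10. Scaled to the same total of reads, which moved the median of all genes to 0.29, 35 members were called higher and 1 lower. The fit without the 5 MDM libraries rich in T and NK cell transcripts holds no type 1 transplanted MDM. It averages the other classes, with library 3 as the only type 2 transplanted MDM, and is thus a different comparison. With same-numbered samples fitted as blocks, more members were called, and the closing section gives the counts of both fits. The share of all genes called in these alternatives is not given here.

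In MDM, Cox6a2 was at 57.2, 197.6 and 604 normalised reads (lowest, median and highest of 9 libraries) against 96.0, 450.3 and 3403 in the 12 microglia libraries. The ranges overlap, and all 6 transplanted microglia libraries lay within the MDM range. The fitted difference, which weights the 4 tumour classes equally, was -1.76 ± 0.34 (log2, adjusted p = 0.00042, limma), a 3.38-fold lower level, and was called in all 32 alternatives. By class it was called in type 1 spontaneous tumours (-2.90 ± 0.66, adjusted p = 0.0086; 0.16 without MDM library 2) and in type 2 spontaneous tumours (-3.11 ± 0.84, adjusted p = 0.023; 0.057 and 0.059 without microglia library 1 or 2). In transplanted tumours it was -0.20 ± 0.56 (type 1, adjusted p = 0.82) and -0.81 ± 0.66 (type 2, adjusted p = 0.44). The test of the difference between models in type 1 tumours gave 2.70 ± 0.87 with adjusted p = 0.084, so a difference between the classes was not shown at the 0.05 level.

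Cox6b2 (chr7:4751792-4753094, minus strand) was the member with the highest estimate in MDM. It stood at 208 and 151 normalised reads in type 1 spontaneous MDM, 115 in type 2 spontaneous MDM and 73.9 and 134 in type 2 transplanted MDM. In type 1 transplanted MDM it was at 29.6, 40.2, 29.7 and 39.9, within the microglia range of 0 to 48.4. All other MDM libraries lay above every microglia library. The difference over all classes was 2.09 ± 0.51 (log2, 4.26-fold, adjusted p = 0.0027, limma) and missed the threshold in 1 of 32 alternatives. That was the fit without the 5 MDM libraries rich in T and NK cell transcripts, with 2.18 ± 0.77. It averages only the classes other than type 1 transplanted. In type 1 transplanted tumours the call (2.26 ± 0.82, adjusted p = 0.041) was lost in 13 of 31 alternatives. Microglia library 2 of that class had no read, and without it the estimate was 0.82 ± 0.58 with adjusted p = 0.33. The call was also lost without any 1 of the 4 MDM libraries of that class or without type 2 transplanted microglia library 1. Between the models in type 1 MDM the estimate was -2.33 ± 0.93 (adjusted p = 0.11).

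Uqcrfs1 (chr13:30540312-30545316, minus strand), the Rieske iron-sulphur protein of complex III, was 1.53-fold higher in MDM (log2 0.61 ± 0.16, adjusted p = 0.0045, limma) and was called in all 32 alternatives. Its levels ran from 4244 to 7609 normalised reads in MDM and from 2430 to 5806 in microglia, and the ranges overlapped. Atp5o (chr16:91925223-91931630, minus strand), which joins the stator of the ATP synthase to its catalytic head, was 1.52-fold higher (0.60 ± 0.19, adjusted p = 0.017), from 1802 to 4323 against 1067 to 3571. It missed the threshold in 2 of 32 alternatives, without type 1 spontaneous MDM library 2 and without the 5 MDM libraries. Ndufa6, an accessory subunit of complex I (0.62 ± 0.23, adjusted p = 0.036), and Atp5d, the delta subunit of the ATP synthase's central stalk (0.59 ± 0.22, adjusted p = 0.036), missed it in 12 and 11 of 32. Both were lost without library 1 of type 1 transplanted MDM or of type 2 transplanted MDM, library 2 of type 1 spontaneous MDM, of type 1 spontaneous microglia or of type 2 transplanted microglia, or library 4 of type 1 transplanted microglia. Ndufa6 was also lost without type 1 transplanted microglia library 2 or type 2 transplanted MDM library 3, and Atp5d without type 1 spontaneous microglia library 1 or type 2 spontaneous microglia library 3.

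**Figure D4:**
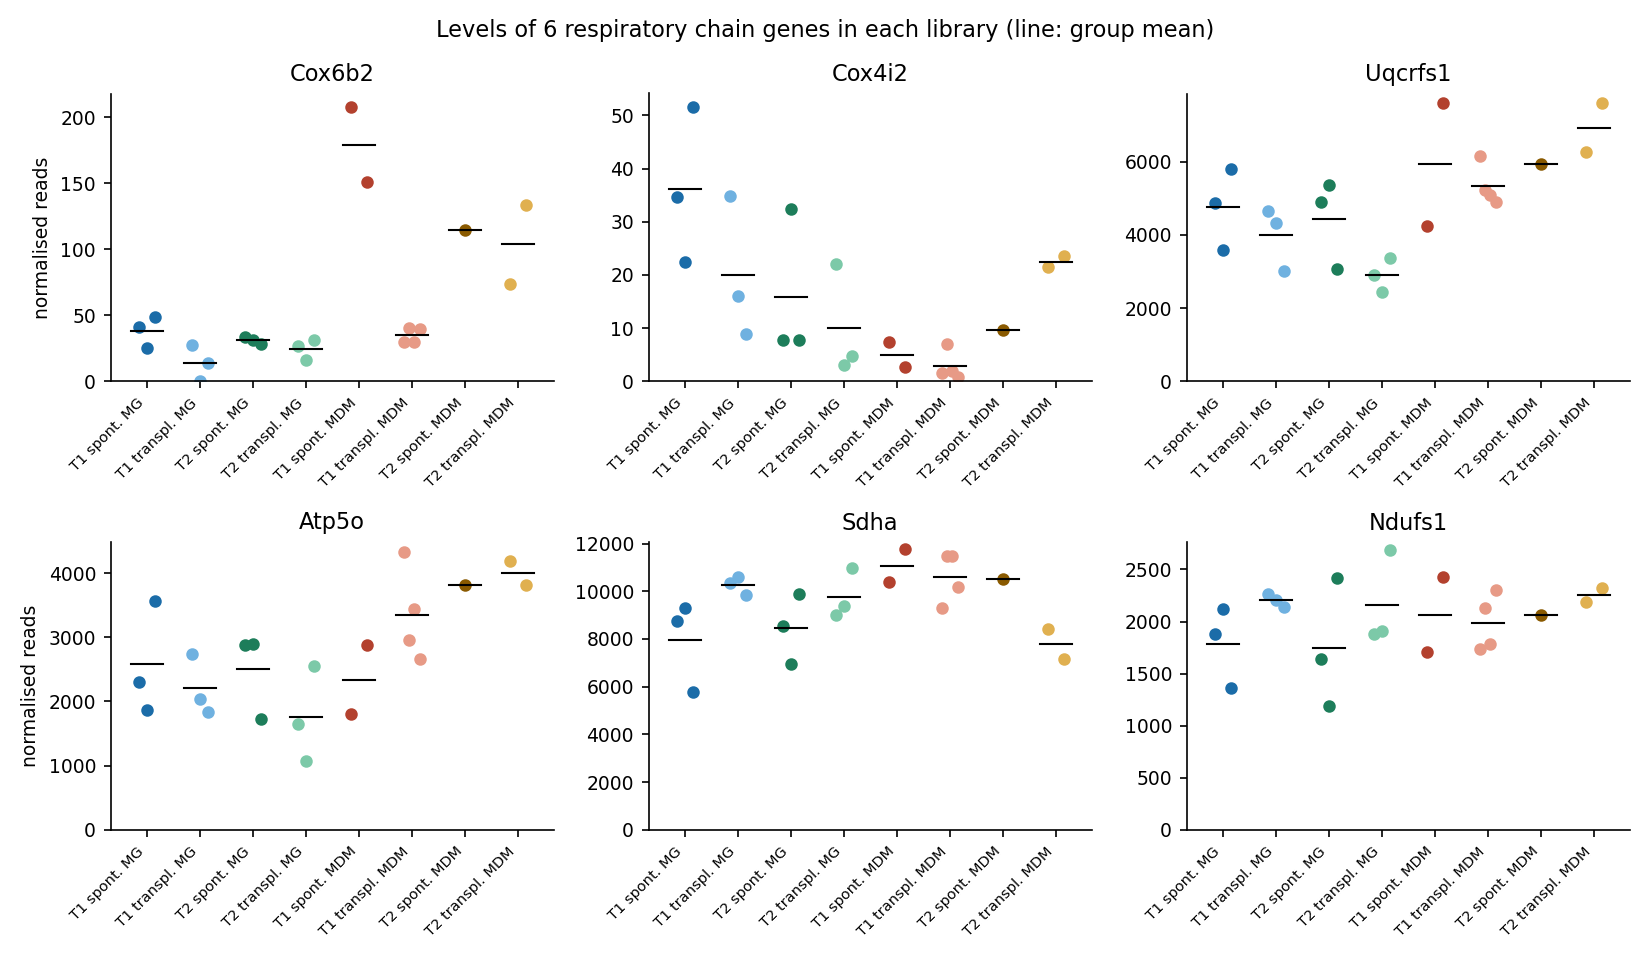
Normalised reads of 6 respiratory chain genes in each library, by group (points: libraries; line: group mean; each axis starts at 0). Cox6b2 is high in spontaneous MDM and in type 2 transplanted MDM, Uqcrfs1 and Atp5o lie higher in MDM with overlapping ranges, and Sdha is lowest in type 1 spontaneous microglia library 3.

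Type 2 transplanted tumours held most of the members' calls. There 22 of 84 members were higher in MDM and 0 lower, while 18.0% of all genes were called and 9.52% were called higher. All 41 tested genes of complex I, 8 of complex III and 17 of complex V had an estimate above 0, and the members' median was 1.05 (log2) beside 0.01 for all genes. The called genes were 8 of complex I, 4 of complex III, 4 of complex IV and 6 of complex V, with none of complex II. Among the cytosolic ribosomal protein genes 43 of 98 were called higher and 2 lower, with a median of 1.25, and among the mitochondrial ribosomal protein genes 15 of 78 higher and 0 lower, with a median of 0.76. Across the 79 tested members with a known length the estimate had a correlation of -0.51 with log2 transcript length, so shorter members had the higher estimates, and the part of transcript length or RNA quality in the calls was not tested.

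In complex III, Uqcrfs1 was at 2904, 2430 and 3372 normalised reads in type 2 transplanted microglia and at 6273 and 7594 in MDM (log2 1.26 ± 0.31, 2.40-fold, adjusted p = 0.0089, limma). The MDM values lay above all 3 microglia values. Uqcrh, the hinge protein, was at 1118, 612 and 1233 against 2604 and 2537 (1.44 ± 0.46, adjusted p = 0.038). Uqcrb (924, 538 and 1235 against 1769 and 2547) and Uqcrq (1426, 755 and 2061 against 3473 and 3490) were called higher too. In complex IV, Cox5a, a subunit of the complex's matrix side, was at 2410, 1398 and 3723 against 5840 and 7323 (1.49 ± 0.41, adjusted p = 0.018). Cox7b, a small membrane subunit, was at 925, 492 and 1403 against 2271 and 2834 (1.56 ± 0.43, adjusted p = 0.017). Cox5b (1.42 ± 0.45, adjusted p = 0.034) and Cox8a (1.20 ± 0.41, adjusted p = 0.050, under the threshold before rounding) were called as well. Of the other subunit forms, Ndufa4 (1.24 ± 0.43, adjusted p = 0.053), Cox7a2, Cox6b1, Cox6a1, Cox4i1, Cox4i2, Cox6b2 and Cox6a2 (adjusted p from 0.061 to 0.44) were not. In complex II, Sdhb stood at 0.77 ± 0.41 (adjusted p = 0.21), Sdhd at 0.57 ± 0.33, Sdhc at 0.16 ± 0.35 and Sdha at -0.33 ± 0.24.

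In complex I, Ndufb6, a membrane-arm accessory subunit, was at 754, 436 and 1138 in microglia and at 1962 and 2021 in MDM (1.46 ± 0.43, adjusted p = 0.025, limma). Ndufb1 (1.80 ± 0.55, adjusted p = 0.029), Ndufa6 (1.43 ± 0.44, adjusted p = 0.032) and Ndufb7 (1.46 ± 0.45, adjusted p = 0.032) are accessory subunits too, and core subunit Ndufv2 was called with 1.14 ± 0.35 (adjusted p = 0.033). In complex V, Atp5o was at 1643, 1067 and 2558 against 4185 and 3822 (1.28 ± 0.37, adjusted p = 0.023), Atp5g3, which encodes the proton-carrying c subunit, had 1.35 ± 0.41 (adjusted p = 0.029), and the peripheral stalk subunit Atp5pb 0.98 ± 0.31 (adjusted p = 0.032). Atp5d (4328, 2445 and 4471 against 11014 and 7980) was called higher too. In each of these sets of values microglia library 2 was the lowest.

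The 22 calls depended on single libraries, and all 22 were lost without MDM library 3. Without type 2 transplanted microglia library 2 the count was 1, without type 2 transplanted microglia library 1 it was 5, without type 2 transplanted MDM library 1 it was 1 and without MDM library 3 it was 0. Without type 1 spontaneous microglia library 3, which enters only the estimate of the spread, it was 37. How many of all genes were called in these fits is not given here. Only the groups compared gave 1 call and no filter on low genes gave 5, while the members' median stayed between 0.78 and 1.29 in all 32 alternatives. MDM library 1 was rich in T and NK cell transcripts (summed level 331621) and MDM library 3 was not (39264), and members' medians in these libraries were 0.38 and 0.49. The summed level of the microglia markers was 30076 in MDM library 1. In MDM library 3 it was 231967, the highest of all MDM libraries. Microglia library 2 of the class also held the highest summed levels of astrocyte and neural progenitor (12203), dendritic cell (58131) and neutrophil markers (5164, the next being 1364) among the 12 microglia libraries. It held the lowest of cycling cell (3353) and T and NK cell markers (1157). The dendritic cell list includes Siglech, which is also in the microglia list, so its sum in microglia need not come from dendritic cells. The part of these marker levels in the calls was not tested.

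**Figure D5:**
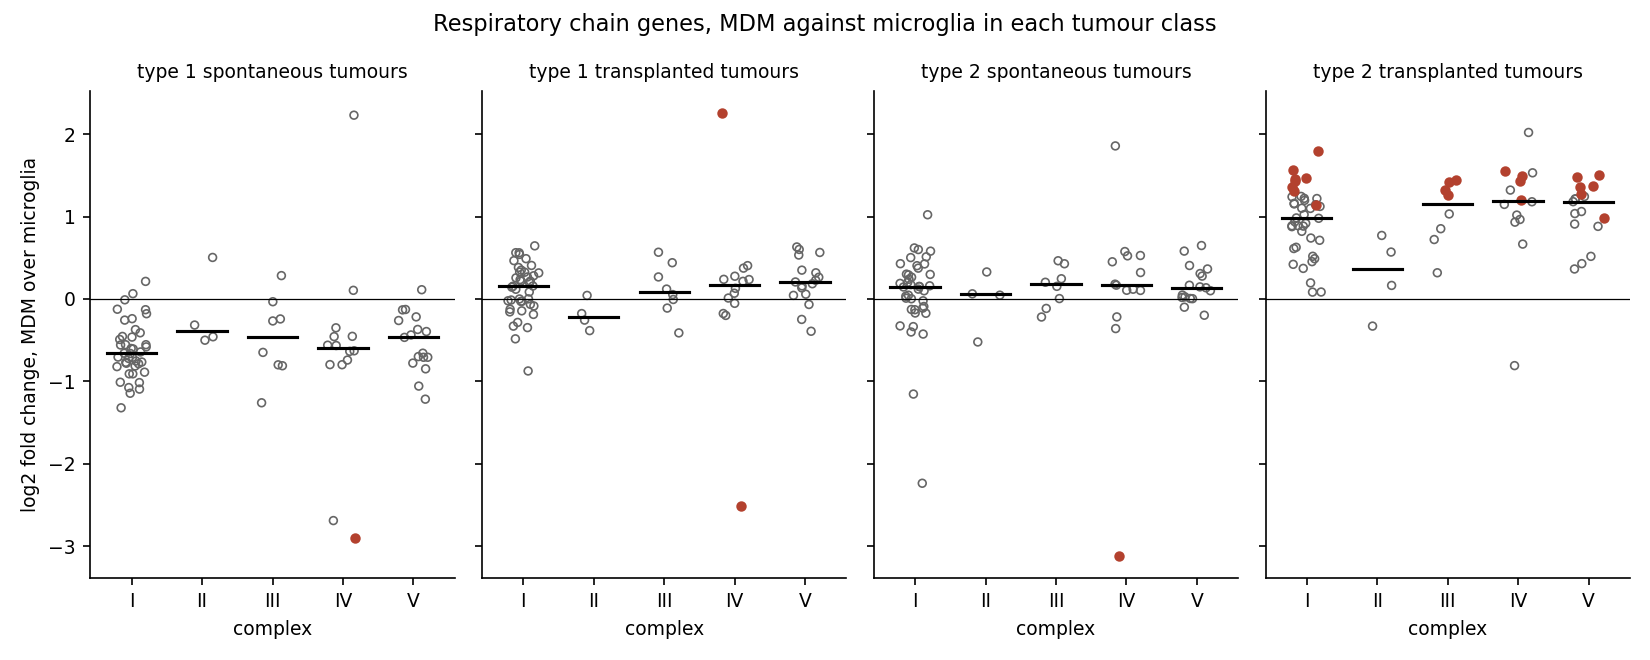
Log2 fold change of each tested member, MDM over microglia, by complex in the 4 tumour classes (circles: genes; filled circles: adjusted p under 0.05; bars: median of the complex). Values centre near 0 in type 1 transplanted and type 2 spontaneous tumours, below 0 in type 1 spontaneous tumours and near 1 in type 2 transplanted tumours.

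The other classes gave few calls. In type 1 spontaneous tumours Cox6a2 was the only called member, lower in MDM, beside 13.4% of all genes, and the members' median was -0.60 with 77 of 84 estimates below 0. Ndufa4 (-1.09 ± 0.43, adjusted p = 0.10) and Atp5g1 (-1.06 ± 0.42, adjusted p = 0.11) were among the low estimates, and Cox4i2 stood at -2.69 ± 0.98 (adjusted p = 0.076) and Cox6b2 at 2.23 ± 0.98 (adjusted p = 0.15). Cox4i1, Cox6a1, Cox6b1, Cox7a2, Cox7b and Cox8a stood between -0.80 and -0.46, Sdhb, Sdhc and Sdhd between -0.50 and -0.32 and Sdha at 0.50 ± 0.24 (adjusted p = 0.18). The count was 0 without MDM library 2, 9 (all lower) without type 1 spontaneous microglia library 2, 2 without type 1 transplanted microglia library 2 and 2 without type 2 spontaneous microglia library 3. In type 2 spontaneous tumours, with 1 MDM library that is taken to vary like the other groups, Cox6a2 was again the only call beside 10.7% of all genes, the members' median was 0.15, Cox6b2 stood at 1.86 ± 1.24 (adjusted p = 0.40), Sdha to Sdhd between -0.52 and 0.33, and the count was 0 without microglia library 1 or 2 of that class.

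In type 1 transplanted tumours Cox6b2 was called higher and Cox4i2 lower in MDM, beside 34.1% of all genes, with a members' median of 0.15. Cox4i2, the form of subunit 4 known to be induced by low oxygen, was at 34.8, 16.1 and 8.95 normalised reads in microglia and at 1.60, 6.99, 1.94 and 0.726 in MDM, with no overlap (log2 -2.51 ± 0.82, adjusted p = 0.023, limma). Cox6a2 (-0.20 ± 0.56), the other tested subunit forms (-0.18 to 0.37) and the Sdh genes (-0.38 to 0.04) were not called. At the levels of Cox4i2 a few reads decide the value, and the call was lost without type 1 transplanted microglia library 1 or 2 or MDM library 1 or 4. The call on Cox4i2 was also lost with same-numbered samples fitted as blocks. The 2 calls became 0 without microglia library 2 or MDM library 1 or 4 of that class, and 1 without microglia library 1, MDM library 2 or 3, or type 2 transplanted microglia library 1. Scaled to the same total of reads, 34 members were called higher and 1 lower, but the median of all genes then moved from 0.15 to 0.70 and the members' median, at 0.72, moved with it. Quantile normalisation gave 3 higher and 1 lower.

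Among MDM, 0 members were called between transplanted and spontaneous type 1 tumours by limma (2 had an unadjusted p under 0.05) and 1 by voom, beside 13.7% of all genes. The members' median was 0.31, with Cox6b2 at -2.33 ± 0.93 (adjusted p = 0.11), Ndufa4 at 0.88 ± 0.41 (adjusted p = 0.17) and the Sdh genes between -0.28 and -0.03. Cox6a2, called between models in microglia, stood at 469 and 215 normalised reads in spontaneous type 1 MDM. In transplanted type 1 MDM it was at 198, 155, 604 and 387, so the ranges overlapped. In this comparison 8 of 10 microglia markers were lower and 10 of 15 T and NK cell markers higher in transplanted tumours, and their part was not tested. Of the members, 1 was called without type 1 transplanted microglia library 2. Scaling to the same total of reads called 15 members, all higher in transplanted tumours, with the median of all genes at 0.54. Between type 2 and type 1 transplanted MDM 0 were called by limma (3 at an unadjusted p under 0.05) and 0 by voom, beside 5.91% of all genes, with a median of 0.39. Cox4i2 had an estimate of 2.87 ± 0.93 (adjusted p = 0.074), from 0.726 to 6.99 normalised reads in type 1 and 21.5 and 23.6 in type 2. Cox6a2 stood at -1.49 ± 0.63 (adjusted p = 0.17), Sdha at -0.45 ± 0.23 (adjusted p = 0.28) and Sdhd at 0.55 ± 0.31 (adjusted p = 0.33).

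The tests of whether the cell type difference itself changed called no member. Between models in type 1 tumours 0 were called by limma (6 at an unadjusted p under 0.05) and 0 by voom, beside 4.51% of all genes, with a members' median of 0.74. Cox6a2 (2.70 ± 0.87, adjusted p = 0.084) and Ndufa4 (1.35 ± 0.56, adjusted p = 0.20) were among the higher estimates, and 1 member was called without type 1 spontaneous microglia library 2. Between tumour types in transplanted tumours 0 were called by limma (11 at an unadjusted p under 0.05) and 0 by voom, beside 0.749% of all genes, with a members' median of 0.89. Cox4i2 had 4.04 ± 1.28 (adjusted p = 0.13), Sdhb 0.95 ± 0.53 (adjusted p = 0.40) and Sdha -0.37 ± 0.31 (adjusted p = 0.59). These comparisons share libraries with those above and are not independent of them.

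Other mitochondrial genes, from lists made with the members, were also compared between MDM and microglia over all classes, where 42.7% of all genes were called. Of 17 genes of the citric acid cycle and pyruvate dehydrogenase, 4 were higher and 1 lower in MDM (29.4% called). Pdha1, a subunit of pyruvate dehydrogenase, was higher (log2 1.25 ± 0.22, adjusted p = 0.00013, limma), as were Fh1, Mdh2 and Cs, and Suclg2, which makes succinate from succinyl-CoA, was lower (-0.95 ± 0.16, adjusted p = 0.00011). Suclg2 was between 601 and 1100 normalised reads in MDM and between 745 and 1776 in microglia. Of 44 assembly factors of the chain 6 were higher and 5 lower (25.0% called), among them Sdhaf2 (0.68 ± 0.14, adjusted p = 0.00074), which attaches the flavin to Sdha, and Bcs1l (-0.80 ± 0.18, adjusted p = 0.0016), which inserts Uqcrfs1 into complex III.

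Of 18 electron carriers and transporters, 3 were higher and 5 lower in MDM, which is 44.4% called beside the 42.7% of all genes. Gpd2, which feeds electrons from glycerol-3-phosphate into coenzyme Q, was at 1053 to 3685 normalised reads in MDM and at 176 to 632 in microglia, with no overlap (2.23 ± 0.26, adjusted p = 1.7e-06, limma). Cycs, cytochrome c, was higher too (0.96 ± 0.28, adjusted p = 0.0091), while Slc25a4, an ATP and ADP carrier, was lower (-0.98 ± 0.15, adjusted p = 3.2e-05). Sod2, the superoxide dismutase of the matrix, was higher (0.87 ± 0.21, adjusted p = 0.0024), and the uncoupling protein gene Ucp2 was not called (0.40 ± 0.22, adjusted p = 0.16). Of 13 coenzyme Q synthesis genes 0 were higher and 4 lower (30.8% called), led by Coq7 (-1.05 ± 0.21, adjusted p = 0.00061).

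Of 14 regulators of mitochondrial gene expression 3 were higher and 1 lower in MDM (28.6% called, beside 42.7% of all genes). Tfam, which packages and transcribes mitochondrial DNA, was higher (0.76 ± 0.16, adjusted p = 0.00069, limma), as was Nrf1, whose motif was searched above (0.70 ± 0.18, adjusted p = 0.0049), and Esrra was lower (-0.57 ± 0.22, adjusted p = 0.049). Ppargc1a, a coactivator of these factors, had no read in 9 of 12 microglia libraries and in 1 of 9 MDM libraries, and reached 42.3 normalised reads in microglia and 77.5 in MDM (adjusted p = 0.021). Ppargc1b was not called (-0.32 ± 0.46, adjusted p = 0.61). Between models in microglia 1.84% of all genes were called. Of the assembly, citric acid cycle, carrier, coenzyme Q, antioxidant and regulator lists 1 gene was called there, which is not read as a result about these lists. It was Timmdc1, an assembly factor of complex I, which was lower in transplanted tumours (-1.59 ± 0.37, adjusted p = 0.035, limma). It stood between 166 and 266 normalised reads in transplanted and between 253 and 1294 in spontaneous microglia, overlapping at type 2 spontaneous library 3.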

How the data were processed

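The deposited table holds variance-stabilised log2 expression values for 30749 genes in 21 tumour libraries, made by the authors. Per the labels' protocols, RNA of sorted cells was extracted with TRIzol and the miRNeasy Micro kit and amplified with the SMART-Seq v4 kit, and the submitters' processing notes name STAR 2.7.8a, DESeq2 and the mm10 genome; the counting tool and its strand setting are not given in the sources used here. The lowest value of the deposited log2 scale, 4.22, marks a gene without reads. Inverting the scale gave normalised reads, and multiplying by the size factors found with it gave whole reads for 100% of values (tolerance 1e-06). The 4 normal brain samples were not analysed here, and no column was left unmapped.

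Genes with at least 10 normalised reads in at least 3 libraries (17216) were fitted on log2(normalised reads + 1), which understates fold changes of low genes, with limma 3.58.1 in R 4.3.3. The fit had 1 mean for each of 8 groups, trended empirical Bayes with 13 residual degrees of freedom, and Benjamini-Hochberg adjustment over all genes within each comparison, with calls at adjusted p under 0.05. Values after ± are standard errors unless named SD. The lone type 2 spontaneous MDM library is assumed to vary like the other groups. Alternatives were other pseudocounts, filters, scalings and samples, the deposited values, limma voom on the recovered reads, a replicate block, and each library left out. In simulated data all groups had each gene's overall mean, and few genes were changed. There the MDM and microglia comparison recovered 36.1% of genes changed 2-fold and 67.7% of those changed 4-fold. The comparison in type 2 transplanted tumours recovered 1.6% and 47.6%. Far more genes were called in these comparisons of the real data (42.7% and 18.0%), so the recovered shares do not measure recovery there.

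Members and lists were chosen with earlier results of these data known, and the muscle and plasmacytoid dendritic cell markers after seeing the values. Every member may be named. For each comparison the choice was the called members with the smallest p in each complex (up to 4 in each direction), the alternative subunit forms and the Sdh genes. Not every form and Sdh gene is given in every comparison. Of other lists, up to 4 called genes with the smallest p are named, with Ppargc1a, Ppargc1b, Cycs, Ucp2 and Sod2. Gene positions and lengths come from GENCODE on GRCm38 and promoters from RefSeq on GRCm38.p6. Versions used were Python 3.11.15, pandas 2.3.3, numpy 2.4.6, scipy 1.17.1 and matplotlib 3.10.9.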

Additional observations from a re-analysis of the deposited data

Results flagged for a closer look

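Within the 4 type 1 transplanted MDM libraries, Ndufv2, a core subunit of complex I, stood at 4054.5 normalised reads in library 1, apart from the other libraries, the nearest of which was at 3592.2 and the lowest at 3564.7. The gap took 0.944 of the group's range, above Dixon's 95% critical value. This was the only one among 84 members tested in that group of 4 libraries, where chance gives such a gap in about 1 of 20 tests. The 84 members share the same 4 libraries and mostly vary together, so the count of gaps cannot be set against that share. A single gap is not read as a result.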

How the results depend on the processing

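No count or estimate changed direction in a called result under the 32 alternatives, of which 21 left out 1 library, and 3 of the 33 calls (Cox6a2 and Uqcrfs1 over all classes, Cox6a2 between models in microglia) were made in all of them. The counts of called members moved as follows, and the cause was not tested. The share of all genes called in each alternative is not given beside them. A moved count is therefore not read as a result about the members alone. For MDM against microglia over all classes (6) the count was 36 with libraries scaled to the same total of reads, 2 without the 5 MDM libraries rich in T and NK cell transcripts, and 3 to 16 with 1 library left out. In type 1 spontaneous tumours (1) it was 3 with a pseudocount of 8, 2 on the deposited values and 2 by voom. It was 0 with only the groups compared and 0 to 9 with 1 library left out. Without 3 microglia libraries (type 1 spontaneous library 2 and type 1 transplanted libraries 1 and 2) it was 7. Type 1 spontaneous microglia library 3, with the highest T and NK cell sum among microglia (14155), was kept in that fit. In type 1 transplanted tumours (2) it was 1 with a pseudocount of 8, with a filter of 50, with no filter and on the deposited values, 4 with quantile normalisation, 35 with the same total, 5 with only the groups compared, 0 without the 3 microglia libraries, and 0 to 3 with 1 library left out. In type 2 transplanted tumours (22) it was 5 with no filter, 38 with the same total, 1 with only the groups compared, 0 without the 5 MDM libraries, and 0 to 37 with 1 library left out. In type 2 spontaneous tumours (1) it was 0 by voom, 0 with only the groups compared, and 0 to 1 with 1 library left out. Between models in microglia (1) it was 1 to 16 with 1 library left out. Between models in type 1 MDM (0) it was 1 with a pseudocount of 8, quantile normalisation, the deposited values, voom, only the groups compared or without the 3 microglia libraries, 15 with the same total, and 0 to 1 with 1 library left out. Between types in transplanted MDM (0) it was 1 with quantile normalisation, and for the cell type difference between models (0) 2 with the same total and 0 to 1 with 1 library left out. That scaling took the all-gene median from 0.07 to 0.29 over all classes and from 0.15 to 0.70 in type 1 transplanted tumours. The members' median ran from -0.21 to 0.91 over the alternatives in type 2 spontaneous tumours and from -0.70 to 0.29 for the interaction of type and model in microglia, and kept its sign in the other 10 comparisons. In the replicate block fit the counts were 29 over all classes, 1 in type 1 transplanted, 8 in type 2 transplanted and 0 in type 2 spontaneous tumours, and it moved no other count. Same-numbered samples had correlated deviations of 0.04 to 0.24, not all above 0.1, and each MDM library with a same-numbered microglia library correlated best with it. The main fit did not treat them as pairs, so its p-values leave out any pairing that the numbers mark. Type 1 transplanted microglia library 4 is numbered 4 in its description and 3 in its title. The description was used, and its correlation was 0.046 with MDM library 4 and 0.045 with MDM library 3. Cox4i2 and Cox6b2 lie at levels where single reads matter.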
